A study of Pan troglodytes with 6 samples.

Results

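Purkinje cells are the large inhibitory neurons whose axons carry the only output of the cerebellar cortex. The genes described here are 8 grouped as markers of these cells: PCP4, CALB1, PCP2, CA8, PVALB, PPP1R17, CBLN2 and HOMER3. They were taken by name, and a gene counted as measured when a feature of the array carried its symbol and no other in the platform annotation. On this rule 7 of the 8 were measured, each by 1 feature, among 12584 named genes and 15143 features. PVALB, which encodes parvalbumin, was not analysed here.

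The measurements come from chimpanzee (Pan troglodytes) tissue hybridised to an exon array designed on human genes. Cerebellum and liver were each represented by 3 arrays, labelled as biological replicates. In both tissues replicate 1 came from a female aged 27 years, replicate 2 from a male aged 37 years and replicate 3 from a male aged 30 years. No treatment or genetic change is given for any animal, and the labels do not state which part of the cerebellum was taken. Each value is an intensity on a linear scale, with the same distribution on all 6 arrays. Levels of different genes are not set against each other, because probes differ in their response and in how well human probes match chimpanzee RNA.

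Calcium signalling sets much of what Purkinje cells are known for. Glutamate from parallel fibres acts in part through phospholipase C beta and the inositol trisphosphate (IP3) receptor, which releases calcium from internal stores. Calbindin, encoded by CALB1, buffers that calcium, PCP4 binds calmodulin through an IQ motif, and CA8, a carbonic anhydrase relative without enzyme activity, binds the IP3 receptor. HOMER3 is a postsynaptic scaffold that binds the IP3 receptor. PPP1R17, also called G-substrate, inhibits protein phosphatases when the cGMP-dependent kinase has phosphorylated it. PCP2 binds inhibitory G-protein alpha subunits through GoLoco motifs, and CBLN2 is a secreted cerebellin that binds neurexins at synapses.

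All 7 measured markers were higher in cerebellum than in liver and 0 were lower (limma, adjusted p under 0.05 over all 15143 features). Of all features, 26.7% were called higher in cerebellum and 23.9% lower. For all 7 the 3 cerebellum values lay above the 3 liver values, as was the case for 31.0% of all features. The median difference of the 7 on the log2 scale was 2.88, against 0.04 over all features. A higher level in cerebellum was not particular to these markers. It was also called for 15 of 15 measured granule cell markers (median 3.52) and 15 of 15 pan-neuronal genes (median 4.26). Markers of interneurons and Golgi cells had a median of 1.29, and those of the cerebellar nuclei and projection neurons 1.02. Among the 7 markers the size differed widely, with ratios of the tissue means of 32.1 for PCP4 and 38.9 for CALB1 and of 1.98 for PCP2 and 1.71 for CBLN2. With 1 array left out these ratios ranged from 24.0 (without liver replicate 1) to 64.2 (without liver replicate 3) for PCP4, from 32.4 to 56.4 for CALB1, from 1.59 to 2.49 for PCP2 and from 1.50 to 1.90 for CBLN2.

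**Figure D1:**
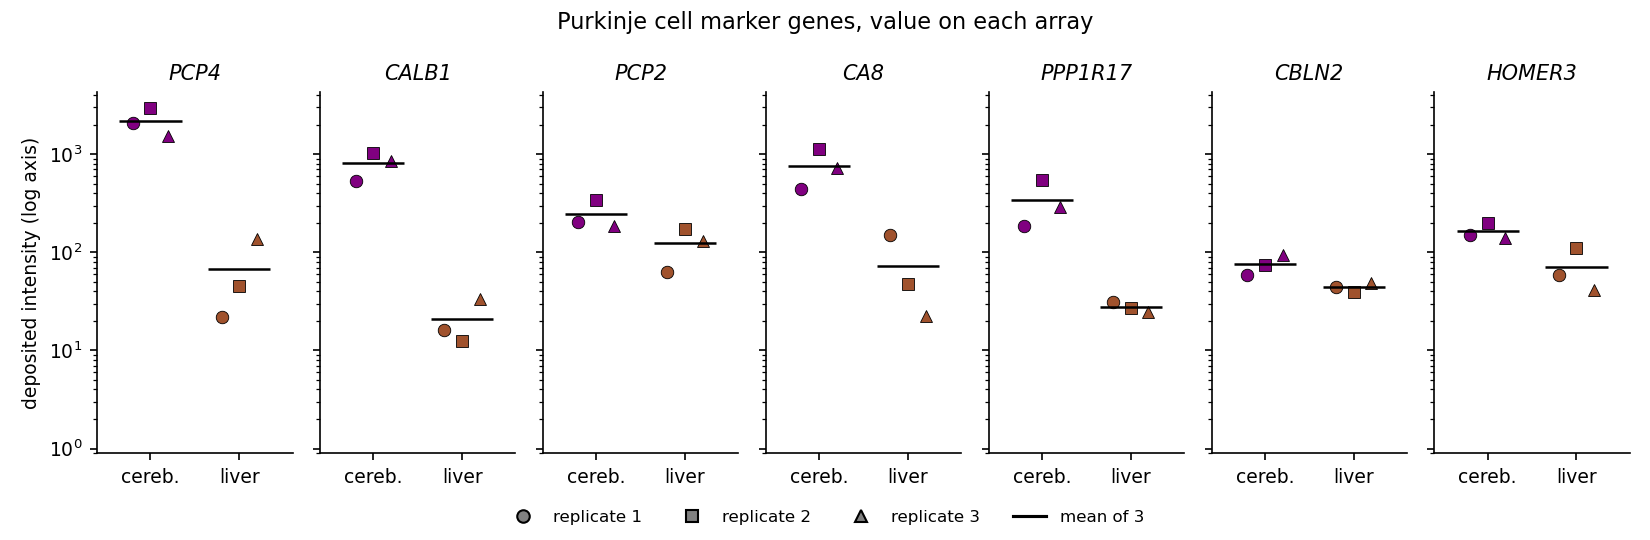
Deposited intensity of each measured Purkinje cell marker (log axis) on the 3 cerebellum arrays (purple) and the 3 liver arrays (brown), with symbols for the replicate number and a line at the mean of 3. The tissues lie far apart for PCP4 and CALB1, at ratios of means of 32.1 and 38.9, and close together for PCP2, whose lowest cerebellum value is 186 and highest liver value 174.

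Among the calcium-handling genes, PCP4 had intensities of 2072, 2932 and 1525 on cerebellum replicates 1, 2 and 3 and of 22.0, 45.8 and 135 on the liver replicates. Its lowest cerebellum value was 11.3 times its highest liver value, and liver replicate 3 was the highest of the livers. The means were 2176 ± 709 and 67.7 ± 59.8 (SD, n = 3 per tissue here and below), and the log2 difference was 4.88 ± 0.47 (SE, limma, adjusted p = 4.53e-05). CALB1 had values of 532, 1032 and 851 in cerebellum and 16.2, 12.4 and 33.6 in liver. Liver replicates 1 and 2 lay below 16.8, the 10th percentile of all values, which was also the pseudocount added before taking log2, so their order carries little information. With means of 805 ± 253 and 20.7 ± 11.3, the log2 difference was 4.45 ± 0.30 (SE, limma, adjusted p = 5.56e-06).

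CA8 had values of 441, 1122 and 721 in cerebellum and of 149, 47.2 and 22.6 in liver. Cerebellum replicate 2 was the highest of the 3, and liver replicate 1 was 6.60 times liver replicate 3, so both tissues varied widely between arrays. Its means were 761 ± 342 and 73.0 ± 67.1, and the log2 difference was 3.28 ± 0.52 (SE, limma, adjusted p = 8.85e-04). Without liver replicate 1 the ratio of its means was 21.8 in place of 10.4. HOMER3 had values of 152, 201 and 141 in cerebellum and of 58.7, 112 and 41.1 in liver. The tissues did not overlap but came close, since the lowest cerebellum value was 1.26 times the highest liver value. The means were 165 ± 31.6 and 70.6 ± 36.9, which differed by 1.12 ± 0.30 (log2 difference ± SE, limma, adjusted p = 0.0127).

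PPP1R17, the phosphatase inhibitor, had values of 184, 549.7 and 291 in cerebellum and of 31.4, 27.0 and 24.6 in liver. The liver arrays were nearly level, while cerebellum replicate 2 was 2.99 times replicate 1. Its means were 342 ± 188 and 27.7 ± 3.42, and the log2 difference was 2.88 ± 0.34 (SE, limma, adjusted p = 1.58e-04). The G-protein regulator PCP2 had values of 206, 339 and 186 in cerebellum and of 63.6, 174 and 132 in liver. Its lowest cerebellum value was only 1.07 times its highest liver value. The means were 244 ± 82.9 and 123 ± 55.6, and the log2 difference of 0.94 ± 0.34 (SE) was just past the threshold (limma, adjusted p = 0.0494). The cerebellin CBLN2 was dim in both tissues, at 59.0, 73.8 and 94.8 in cerebellum and 44.7, 39.7 and 48.7 in liver, where the median of each array was 96.3. Its means were 75.9 ± 18.0 and 44.4 ± 4.51, and the log2 difference was 0.58 ± 0.19 (SE, limma, adjusted p = 0.0335).

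The calls of PCP2 and CBLN2 depended on the setting. That of PCP2 was lost in 8 of 13 alternative settings, among them the omission of any cerebellum array or of liver replicate 1 or 3. Its difference fell from 0.94 to 0.58 without liver replicate 1 (limma, adjusted p = 0.125), with adjusted p from 0.00241 to 0.155 over the 13. That of CBLN2 was lost when cerebellum replicate 2, cerebellum replicate 3, liver replicate 1 or liver replicate 2 was left out. Its adjusted p ranged from 0.00426 to 0.143 over the 13 alternatives, and its difference grew to 1.06 when the arrays were aligned on general genes. The general genes are 95 genes of ribosomal proteins, the proteasome and oxidative phosphorylation. Under it the median over all features rose from 0.04 to 0.51, each marker was raised by the same 0.47, and 41.4% of all features were called higher and 14.1% lower. The other 5 markers were called in all 13 alternatives.

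**Figure D2:**
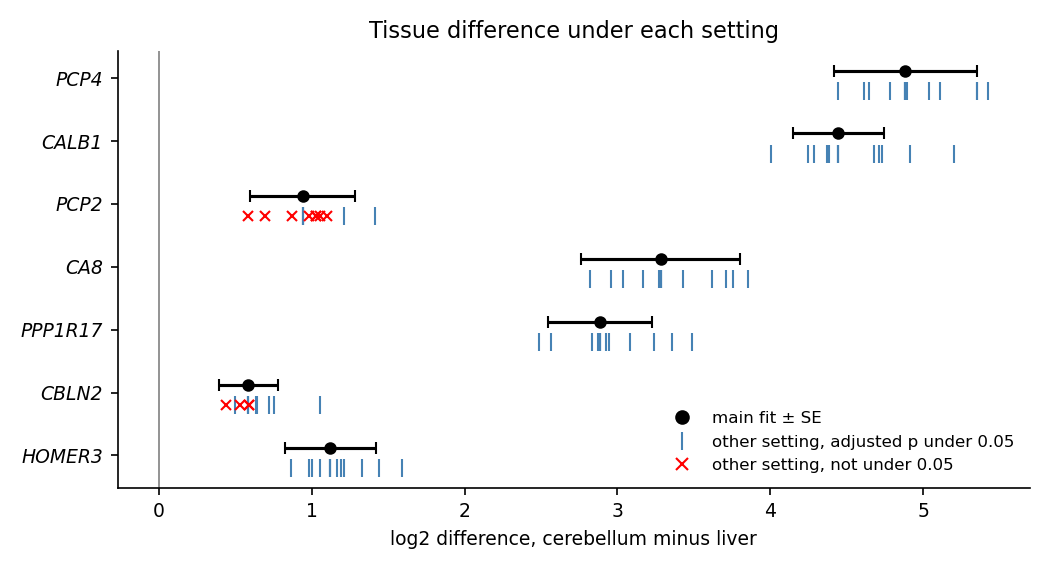
Log2 difference of cerebellum minus liver for each marker. Black points with bars are the reported value ± 1 standard error, and the marks beneath are the 13 alternative settings, blue bars where the adjusted p was under 0.05 and red crosses where it was not. Crosses occur for PCP2 and CBLN2, at 8 and 4 of the 13 settings.

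The markers moved together in part between the 3 cerebellum arrays. Replicate 2 gave the highest of the 3 cerebellum values for 6 of the 7 markers, all but CBLN2, whereas it was the highest for 39.2% of all features and for 32.7% of the 4045 features called higher in cerebellum. Replicate 1 was the highest for 0 markers. It was the lowest for 4 markers, CALB1, CA8, PPP1R17 and CBLN2, against 32.7% of all features and 28.1% of those called higher in cerebellum. Replicate 3 was the lowest for PCP4, PCP2 and HOMER3 and the highest for CBLN2. So CALB1, CA8 and PPP1R17 shared 1 order of the arrays, PCP4, PCP2 and HOMER3 shared another, and CBLN2 followed neither.

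The size of this movement is given as each array's log2 level minus the mean of the other 2 cerebellum arrays. Because the 3 shifts of a gene balance, a high array forces the others lower. The median shift over the 7 markers was -0.41 in replicate 1, 0.72 in replicate 2 and -0.13 in replicate 3, while the median over all features lay within 0.01 of 0 on each array. PPP1R17 had the widest movement, at -1.06, 1.19 and -0.13 in replicates 1, 2 and 3. CA8 followed, with replicates 2 and 3 at 0.97 and 0.03 and replicate 1 well below them, and CALB1 lay at -0.80, 0.60 and 0.19. PCP4 differed from these in that replicates 2 and 3 stood apart, at 0.72 and -0.69, with replicate 1 at -0.03.

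On the deposited scale, most of the markers varied more between the cerebellum arrays than most genes did. Among 6367 genes whose mean in cerebellum was above the array median, 1.37% had a range over the 3 cerebellum arrays at least as wide as that of PPP1R17, and 2.29% at least as wide as that of CA8. The corresponding shares were 8.25% for CALB1, 8.23% for PCP4, 12.6% for PCP2 and 40.6% for HOMER3. CBLN2 was below that level and was not placed. The 3 arrays are 3 animals that differ in sex and age, so no test was made between them, and whether fewer Purkinje cells in a sample or less RNA per cell lay behind a lower value cannot be told apart in bulk tissue.

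The size of the movement depended on the genes that the arrays were aligned on. The deposited values had the same distribution on each array. The median log2 level of the 95 general genes was also highest in cerebellum replicate 2, at 8.65 against 8.22 in replicate 1 and 8.30 in replicate 3. With the arrays aligned on those genes, the median shift of the markers in replicate 2 was 0.33 in place of 0.72. The median shift of all features in it fell too, from -0.01 to -0.39. Replicate 2 was the highest for 4 markers in place of 6. Replicate 2 was then the highest for 10.6% of all features. PPP1R17, CA8, PCP2 and PCP4 kept replicate 2 as the highest, CALB1 and CBLN2 had replicate 3 and HOMER3 had replicate 1. Replicate 1 remained the lowest for CALB1, CA8 and PPP1R17, at shifts of -0.54, -0.75 and -0.80. With the arrays aligned on 15 pan-neuronal genes, replicate 2 was again the highest for 6 of the 7 markers, with a median shift of 0.67. The part of the general gene levels in the movement was not tested further.

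**Figure D3:**
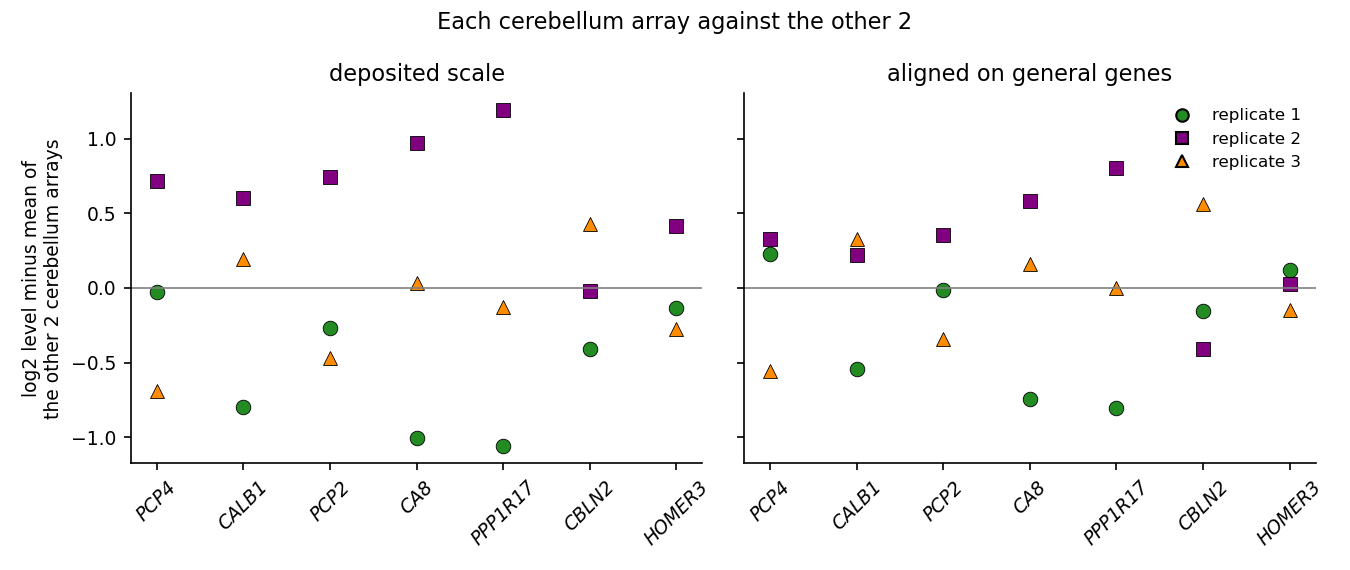
Log2 level of each marker on each cerebellum array minus the mean of the other 2, on the deposited scale (left) and with the arrays aligned on 95 general genes (right). Replicate 2 (squares) is uppermost for 6 of 7 markers on the left and for 4 of 7 on the right, while replicate 1 (circles) is lowest for CALB1, CA8 and PPP1R17 in both panels.

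Other genes known from Purkinje cells were also compared between the tissues. Such a comparison cannot check the label, because all measured granule cell markers and pan-neuronal genes were higher in cerebellum too. Of the 30 other Purkinje cell genes listed, 21 were measured. Of these, 17 were higher in cerebellum, 1 was lower and 3 passed in neither direction, beside 26.7% higher and 23.9% lower of all features. Their median log2 difference was 1.95. With arrays aligned on the general genes 19 were higher and 0 lower, where the shares of all features were 41.4% and 14.1%. PLCB4, a phospholipase C beta of Purkinje cells, had the largest difference, at 1024, 616 and 1009 in cerebellum and 11.9, 15.7 and 22.5 in liver (log2 difference 4.72). The Purkinje cell transcription factor LHX1 was at 185, 544 and 221 against 17.6, 6.07 and 3.88, and SLC1A6, the Purkinje cell glutamate transporter EAAT4, was at 135, 286 and 223 against 12.8, 25.8 and 9.91 (limma, adjusted p = 9.29e-05 and 7.44e-05). The gene that was lower was NECAB2, a calcium-binding protein, at -0.91, and its call was lost under that alignment (limma, adjusted p = 0.228). FOXP2, EBF2 and SLC9A3 passed in neither direction and were dim in both tissues, at no more than 53.4 on any array.

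These genes also varied between the cerebellum arrays. On the deposited scale replicate 2 was the highest for 12 of the 21 and the lowest for 7, and replicate 1 was the lowest for 12, with median shifts of -0.27, 0.36 and 0.14 in replicates 1, 2 and 3. With the arrays aligned on the general genes the median shifts were -0.02, -0.03 and 0.27, and replicate 2 was the highest for 6 and the lowest for 9. The medians of all features were then 0.25, -0.39 and 0.13. Of all 15143 features, replicate 2 was then the highest for 1608 and the lowest for 11739. LHX1 in replicate 2 was more than 2 times either other array. PLCB4 went the other way, with replicate 2 the lowest, as did STAC, an adaptor protein of calcium channels, at 150.4, 30.3 and 86.6. Under the alignment LHX1 was still highest in replicate 2. PLCB4 and STAC were still lowest in it, as most features were.

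Genes of the signalling chain that HOMER3, CA8 and PPP1R17 belong to were called in both directions. Of 31 listed genes of IP3 and cGMP signalling, 22 were measured, with 13 higher in cerebellum and 3 lower, beside 26.7% and 23.9% of all features. Under the general gene alignment the counts were 15 and 1, beside 41.4% and 14.1%. The IP3 receptor ITPR1, which CA8 and HOMER3 bind, was at 660.5, 1153 and 995 in cerebellum and 38.7, 31.1 and 43.2 in liver (log2 difference 4.10). INPP5A, which degrades IP3, differed by 1.95. PRKG1, the cGMP-dependent kinase that acts on G-substrate, was at 48.2, 127 and 71.3 against 20.2, 17.2 and 28.4 (log2 difference 1.28, limma adjusted p = 0.00582), and PPP1R1B, another phosphatase inhibitor, differed by 2.34. GUCY1A1, a subunit of the receptor for nitric oxide, was lower, at -1.34. Replicate 2 was the highest cerebellum array for 11 of the 22 and the lowest for 5. Under the alignment it was the highest for 7 and the lowest for 11, beside 1608 and 11739 of all 15143 features.

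Relatives of the markers differed among themselves. Of 11 measured carbonic anhydrase genes besides CA8, 3 were higher in cerebellum and 1 was lower, a share of higher calls close to the 26.7% of all features. With arrays aligned on the general genes 5 were higher and 1 lower, beside 41.4% and 14.1%. CA10 and CA11, the other relatives without enzyme activity, were higher, CA10 at 1022, 926 and 1067 against 8.33, 16.5 and 11.5 and CA11 at 976, 1285 and 1148 against 51.2, 39.0 and 43.0 (log2 differences 5.15 and 4.23). CA2, an active enzyme, was lower in cerebellum, at -3.43. CA10 lacked the array order of CA8, since its lowest cerebellum value was in replicate 2. This was so under the alignment too, where replicate 2 was the lowest for 11739 of all 15143 features.

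Among cerebellins, CBLN1, which granule cells secrete onto Purkinje cell synapses, was at 919.5, 1179 and 963 in cerebellum and 16.2, 19.9 and 9.78 in liver (log2 difference 5.02), in contrast to the small difference of CBLN2. CBLN4 passed in neither direction (log2 difference -0.23, limma adjusted p = 0.785), with values of 666, 196 and 156 in cerebellum and 124, 495 and 555 in liver. Of 7 measured cerebellins and partners 4 were higher and 1 lower, beside 26.7% and 23.9% of all features. Among the higher ones were the neurexins NRXN2 and NRXN3 at 3.63 and 4.40. C1QL1, a related secreted protein, was lower at -0.75, a call lost when cerebellum replicate 1 or 3 or liver replicate 2 was omitted and under the general gene alignment (limma, adjusted p = 0.316).

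Within the Homer family, HOMER1 was higher in cerebellum, at 420.4, 350.2 and 350.2 against 35.7, 73.1 and 46.8 (log2 difference 2.54). HOMER2 was lower, at 111, 90.2 and 80.7 against 233, 274 and 104 (limma, log2 difference -0.91 with an adjusted p = 0.0425). In 7 of 13 alternatives HOMER2 was not called, among them the omission of any cerebellum array or of liver replicate 1 or 2 (adjusted p up to 0.277). Of 9 measured Homer genes and partners, 5 were higher and 1 lower (all features, 26.7% and 23.9%), with the postsynaptic scaffold SHANK1 at 2.94.

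Calcium buffers and sensors related to calbindin were mixed. Of 20 measured EF-hand genes, 9 were higher in cerebellum and 3 lower, beside 26.7% and 23.9% of all features. Under the general gene alignment 11 were higher and 1 lower, beside 41.4% and 14.1%. CALB2, which encodes calretinin, was at 146, 112 and 74.7 in cerebellum and 2.21, 6.11 and 6.54 in liver (log2 difference 2.52). Its order of the cerebellum arrays was unlike that of CALB1, with replicate 1 the highest, also under the alignment. VSNL1, a neuronal calcium sensor, had the largest difference of the list, at 4.57, and EFHD2 the largest toward liver, at -1.34. CALN1, a calneuron, was at 127, 646 and 307 in cerebellum, with replicate 2 the highest and replicate 1 the lowest on both scales. The list as a whole did not share this order on both scales. On the deposited scale replicate 2 was the highest for 10 of the 20 and the lowest for 3, with a median shift of 0.22. Under the alignment it was the highest for 5 and the lowest for 9, with a median shift of -0.17. All features then had a median of -0.39 in it, and it was the highest for 1608 and the lowest for 11739 of the 15143.

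Regulators from the functional classes of PCP2, PPP1R17 and PCP4 were called in both directions. Of 21 G-protein regulators 8 were higher and 2 lower, led by GNAO1, the G-protein alpha subunit of neurons, at 3.23 and by GNAI2 at -1.51. Of 25 genes of protein phosphatases 1 and 2A and their regulators 10 were higher and 5 lower, with the neuronal subunit PPP2R2C at 3.48 and the glycogen-targeting subunit PPP1R3B at -3.97. Of 7 genes with calmodulin-binding IQ motifs 3 were higher and 3 lower, with the growth cone protein GAP43 at 3.67 and the scaffold IQGAP2 at -3.12. Set beside these counts, 26.7% of all features were higher and 23.9% lower. With arrays aligned on the general genes the counts were 11 and 2, 14 and 3, and 3 and 1, beside 41.4% and 14.1% of all features.

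Lists of other cerebellar cell types differed between the same arrays to unlike extents and in unlike order. For 14 measured markers of molecular layer interneurons and Golgi cells, the inhibitory neurons around the Purkinje cells, the median shift was -0.60, 0.81 and -0.04 in replicates 1, 2 and 3. Aligned on the general genes, which moves every list by the same amount on an array, it was -0.34, 0.42 and 0.09. Replicate 2 was the highest for 11 of the 14, or 10 under the alignment. The summed level of the list was 1728, 3189 and 2284 in the cerebellum replicates and 844 to 887 in liver. KIT, a receptor of these interneurons, was at 284, 1004 and 518 in cerebellum, and GAD1, which makes GABA and is also on the list of other Purkinje cell genes, was at 202, 582 and 342. On both scales replicate 2 was the highest and replicate 1 the lowest for KIT and GAD1, as for CA8 and PPP1R17.

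Markers of Bergmann glia and astrocytes, the glia that surround Purkinje cells, had median shifts of -0.33, 0.54 and -0.15, or -0.07, 0.15 and -0.01 when aligned. Summed levels were 8863, 14226 and 10771 in cerebellum and 1720 to 2715 in liver. Replicate 2 was the highest for 10 of 13, or 7 when aligned. It was the lowest array for 1 of the 13, or 5 when aligned, where it was the lowest for 11739 of all 15143 features. FABP7, a fatty acid binding protein of Bergmann glia, was at 490 in replicate 1, 1927 in replicate 2 and 450.4 in replicate 3. Its aligned shift in replicate 2, at 1.61, was the largest of the 13. Oligodendrocyte and myelin markers lay the other way, at 0.41, -0.23 and -0.18, or 0.67, -0.62 and -0.05 when aligned. Replicate 1 was the highest for 10 of 12, or 12 when aligned, where it was the highest for 8693 of all 15143 features. The summed levels of this list were 6598, 2317 and 2937 in cerebellum and 1337 to 1382 in liver. The myelin gene MBP, at 4297, 966 and 1481, made up a large part of these cerebellum sums. No measured marker of these lists was at or below 0 in cerebellum.

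Markers of the cerebellar nuclei and of projection neurons had median shifts of -0.22, -0.02 and 0.18, with replicate 3 the highest for 6 of 11 and replicate 2 for 4. When aligned they lay at 0.04, -0.41 and 0.31, with replicate 2 the lowest for 7. Granule cell markers lay at -0.21, 0.12 and 0.13 with replicate 2 the highest for 7 of 15, and their summed level was 18070, 17904 and 19402 in cerebellum and 870 to 1063 in liver. Pan-neuronal genes lay at -0.14, 0.07 and 0.07. When aligned, replicate 2 became the lowest for both lists, at -0.27 and -0.32, where the median of all features in it was -0.39. The part of the other cell types in the movement of the Purkinje cell markers was not tested.

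**Figure D4:**
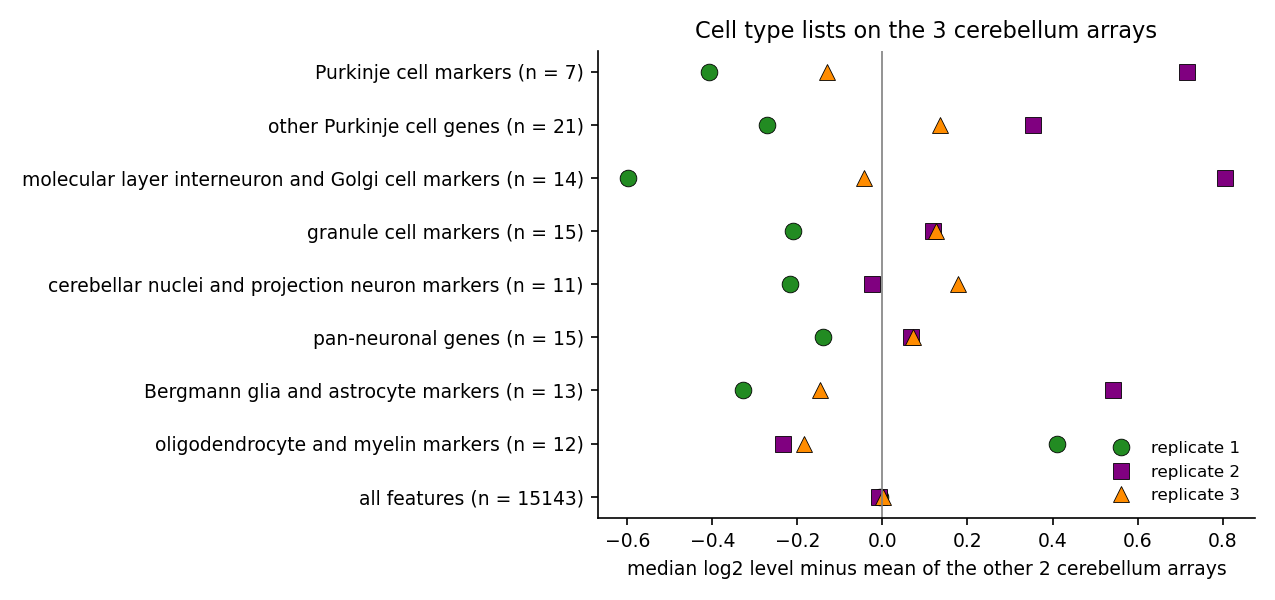
Median over each gene list of the log2 level on a cerebellum array minus the mean of the other 2, on the deposited scale, with the number of measured genes in brackets. Replicate 2 (squares) is highest for the Purkinje cell, interneuron and Bergmann glia lists, at 0.72, 0.81 and 0.54, and replicate 1 (circles) is highest for the oligodendrocyte list, at 0.41.

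In liver the markers did not move together. Liver replicate 1 was the highest liver array for CA8 and PPP1R17, replicate 2 for PCP2 and HOMER3, and replicate 3 for PCP4, CALB1 and CBLN2. The median shifts over the 7 were -0.19, -0.17 and 0.15. PCP4 in liver replicate 3 lay 1.63 above the other livers, where 13 fibroblast, stellate cell and smooth muscle markers lay at a median of 0.81, with summed levels of 2673, 2206 and 4946 in liver and 909 to 1863 in cerebellum, and 9 bile duct markers at 0.55. CA8 in liver replicate 1 lay 1.73 above the other livers, where those lists lay at -0.25 and -0.24 and 16 hepatocyte markers at 0.04. The part of these cell types in the liver values was not tested.

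Over all 6 arrays, the named gene with the pattern closest to the median of the 7 markers was DNER, a Notch-related receptor of Purkinje cells that is on the list of other Purkinje cell genes. The measure was the Euclidean distance between log2 levels, each centred on its own mean. DNER lay at a distance of 0.34, with values of 323, 737 and 458 in cerebellum and 63.0, 59.5 and 58.4 in liver. Next was NEFH, the heavy neurofilament subunit, at 0.44, which is on the list of cerebellar nuclei and projection neuron markers. Then came LPL, lipoprotein lipase, at 0.52, SPOCK2, a matrix proteoglycan, at 0.55, and CHRNA3, a nicotinic receptor subunit, at 0.57.

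The markers themselves did not all lie close to that median. PPP1R17 lay at 0.23, CA8 at 1.50 and the other 5 from 2.19 to 3.12, with tissue differences that ranged from 0.58 for CBLN2 to 4.88 for PCP4. The nearest gene to PPP1R17 alone was again DNER, at 0.36. CALB1 was nearest to UCHL1, a neuronal ubiquitin hydrolase on the list of pan-neuronal genes, at 0.51. HOMER3 was nearest to SCUBE2 at 0.29, PCP2 to TP53I11 at 0.33, PCP4 to CHN1 at 1.08 and CA8 to MT3, a metallothionein of the brain, at 1.10. CBLN2 was nearest to NONO, an RNA-binding protein, at 0.11, and the tissue differences of these genes were 0.58 and 0.57.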

How the data were processed

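RNA of 3 chimpanzee cerebellum and 3 liver samples was measured on a human exon array. Per the labels' protocols, total RNA was depleted of ribosomal RNA and biotin-labelled as sense-strand DNA. The submitters' processing notes name GCOS. Neither the background correction nor the probe summary is stated in the labels used here. The authors' deposited values are linear intensities, 1 per feature and array. They had been quantile normalized, since sorted values differed at 0 positions between arrays, and 93 values per array lay below 0, so totals cannot differ between arrays. Gene names came from the platform annotation (12685 features with 1 symbol, 1780 with several, 678 with none), and the feature of highest mean stood for a symbol that several carried.

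Values below 0 were set to 0 and transformed as log2(intensity + 16.8), which understates differences of dim genes. The tissues were compared with limma 3.58.1 in R 4.3.3 (lmFit, eBayes, two-sided, no block, no filter), with Benjamini-Hochberg adjustment over all 15143 features and a threshold of 0.05. The script was tested on simulated data. With 3 arrays per tissue the smallest two-sided permutation p is 0.1, so none is given. The number of arrays limits the precision, and the p-values cover the spread between these samples.

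The markers and the 19 other lists (331 genes, 251 measured) were chosen with earlier results of these data known. Named genes were drawn from the markers, the called gene with the largest difference in each direction of each list, relatives of the markers, and the genes of nearest pattern. Not all genes that this rule gave are described. Others were named after their values were seen. These are INPP5A, PRKG1, PPP1R1B, LHX1, SLC1A6, FOXP2, EBF2, SLC9A3, STAC, NRXN2, NRXN3, SHANK1, CALN1, KIT and FABP7. The alternatives comprised a replicate block, other pseudocounts, a floor in place of the pseudocount, a filter on dim features, alignment on general or pan-neuronal genes, a prior following the level, and leaving out each array. The alignment of the array shifts of the other lists, and the ratios of means with an array left out, were chosen after seeing the data.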

Additional observations from a re-analysis of the deposited data

How the results depend on the processing

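The direction of all 7 markers held in all 13 alternatives of the tissue comparison, and between 5 and 7 of them were called. The count was 7 with the replicate block, without dim features, with alignment and with the prior following the level, 6 at either other pseudocount (10.2 or 30.3) and with a floor, and 5 or 6 when 1 array was left out. With arrays aligned on general genes, 6275 features were higher in cerebellum and 2136 lower, in place of 4045 and 3617, so that 74.6% in place of 52.8% of calls were higher. Under that alignment the median shift of the markers in cerebellum replicate 3 changed sign, from -0.13 to 9.24e-04. Over the 5 alternatives of the shifts the median ranged from -0.50 to -0.13 in replicate 1 and from 0.33 to 0.72 in replicate 2.

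With the replicate block all 7 markers were called, with adjusted p = 0.0153 for PCP2 and 0.0435 for CBLN2 (limma). Same-numbered arrays agree in sex and age, but the labels do not say that they come from the same animal. Their deviations from the tissue means correlated at 0.11, 0.16 and -0.14 over features. Differently numbered arrays correlated from -0.25 to 0.24, so this check cannot decide whether the samples are paired. The block was kept as an alternative only. No marker had more than 1 feature, so the choice of a feature for shared symbols did not affect the markers. Values under the 10th percentile, such as those of CALB1 in 2 livers, set a limit on the size of the larger differences.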

Other observations

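The genes next to the markers on the chimpanzee assembly NHGRI_mPanTro3-v2.0 did not share one direction. Of 14 protein-coding neighbours, 8 were measured, 3 of which were higher in cerebellum and 1 lower (limma, adjusted p under 0.05), beside 26.7% and 23.9% of all features. DSCAM, beside PCP4, differed by 0.66, PDE1C, beside PPP1R17, by 0.95, and SUGP2, beside HOMER3, by 1.76. DECR1, a mitochondrial enzyme of fatty acid oxidation beside CALB1, was lower in cerebellum by a log2 difference of -2.33, at 211, 289 and 223 against 1212, 1293 and 1305 in liver.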
